A study of Mus musculus with 96 samples.

Results

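GFP_Barcode_1859 is a single DNA barcode, and with it a single leukaemia clone, out of 1331 GFP barcodes and 4675 barcodes in all. It was picked by name because it held the largest mean share of GFP-barcode reads in mice given LSK-derived cells and because that share was on average larger in spleen than in bone marrow. Those values are therefore described here without a test. Differences between groups of mice were tested on the same shares, so these tests are not independent of the choice. The same name was read in both deposited tables and expressed as a percentage of GFP reads, the reads of barcodes that mark cells of LSK origin. It was listed in all 48 columns used, of which 29 were bone marrow or spleen libraries of 15 mice that received LSK-derived cells.

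LSK cells (lineage-negative, c-Kit-positive and Sca-1-positive) and granulocyte-monocyte progenitors (GMP) were sorted from the marrow of female C57BL/6 mice 6 to 8 weeks old. Both were transduced with an MLL-AF9 retrovirus and with SPLINTR barcode libraries (GFP for LSK, mCherry for GMP) and grown with IL-3, IL-6 and SCF. All groups, controls included, thus carry the same oncogene, and each origin is represented by 1 transduced pool. The LSK recipients comprised 3 Ptprca and 4 NSG mice, and the mixed recipients of LSK- plus GMP-derived cells comprised 4 of each host. Ptprca is a congenic, immunocompetent C57BL/6 strain, while NSG mice lack B, T and NK cells. Recipient age, cell dose and time of harvest were not given in the sources used here. Ptprca mice 5 to 8 and NSG mice 13 to 16 received GMP-derived cells alone, and their 16 libraries are used only as background. Samples of the LSK pool, the GMP pool and the mixed pool were also sequenced.

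MLL-AF9 is a fusion oncogene that turns myeloid progenitors into an acute myeloid leukaemia when the cells are transplanted into mice. LSK is the immature marrow fraction that holds the haematopoietic stem cells, and GMP are committed myeloid progenitors. A heritable barcode passes to all descendants of the cell it entered, so its read share follows the size of a clone relative to the other clones in the same tissue. In mice the spleen is a blood-forming organ beside the marrow and commonly fills with leukaemia cells in such models. A read share does not separate growth of the clone itself from loss of other clones, and these cannot be told apart here.

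The libraries of LSK-cell recipients rested on 5239254 to 8499553 recovered reads, and counting error was small against the spread between mice. In the bone marrow of Ptprca mouse 17, for example, the clone held 47.6% of GFP reads with a 95% Wilson interval of 47.6 to 47.7. That interval covers counting error only and takes recovered reads as true reads. GFP reads made up over 99% of reads in the LSK recipients, and between 32.4% and 79.6% in the mixed recipients. Of the 29 libraries, 3 held at least 1% of reads in barcodes of no pool or, in an LSK recipient, at least 0.1% in mCherry barcodes. They were the spleens of NSG mouse 10 and Ptprca mouse 18 and the marrow of NSG mouse 12. Without them each of these mice keeps its other tissue for its mean share, and drops out of comparisons of spleen with marrow. The host differences given below were then 0.99 log2 in LSK recipients (limma adjusted p = 0.00447) and 1.12 in mixed recipients (adjusted p = 0.0103). The hosts were deposited as separate tables, so host and any preparation that followed it cannot be told apart. The mice are the replicates throughout, and mouse 24 contributed a spleen only.

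Before transplantation the clone stood in the upper part of the 1331 GFP barcodes by rank, but held far less than the largest. It held 0.462% of GFP reads in the LSK pool (27148 reads, rank 60 of the GFP clones) and 0.541% in the mixed pool (11649 reads, rank 47). The largest clone of each pool, GFP_Barcode_13743, held 2.55% and 2.47%. The clone's share was 1.17 times as large in the mixed pool as in the LSK pool. Of the 654 clones with at least 100 CPM of GFP reads in both pools, 23.1% exceeded that ratio, and the median ratio was 1.02. The 2 PCR samples of each pool were collapsed to 1 deposited column, so this ratio has no replicate check.

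In mice that had received these pools the clone held many times its starting share. Averaged over tissues, it held 38.0% ± 3.69 of GFP reads in Ptprca LSK recipients (SD, n = 3), which is 82.1 ± 7.98 times its share of the LSK pool. In Ptprca mixed recipients it held 48.5% ± 2.92 (SD, n = 4), or 89.7 ± 5.41 times its share of the mixed pool. In NSG LSK recipients it held 19.3% ± 4.63 (SD, n = 4), a multiple of 41.8 ± 10.0. In NSG mixed recipients it held 21.8% ± 8.47 (SD, n = 4), a multiple of 40.2 ± 15.7. The multiple ranged from 21.7 in NSG mouse 23 to 96.9 in Ptprca mouse 17, so every recipient held the clone well above its pool share.

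The clones nearest to it in pool rank did not share this course. The 10 GFP clones ranked just above and below it in the LSK pool began at 0.428% to 0.484% of GFP reads. Over the 15 mice their mean shares ran from 3.35e-06% to 0.0787%, with a median of 0.0129%, and all 10 lay below their pool share. The clone itself averaged 31.5% over the same mice, from 11.8% in the lowest to 52.4% in the highest. GFP_Barcode_2709, with the highest mean of the 10 neighbours, reached at most 0.491% in any mouse. Outside these 10, clones of a slightly larger pool share did expand. GFP_Barcode_29850 (0.563% of GFP reads in the LSK pool) averaged 16.5% over the 15 mice, and GFP_Barcode_100907 (0.533%) averaged 12.9%. Since the clone was chosen for its dominance, the contrast with the 10 neighbours describes the choice and is no test.

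In Ptprca LSK recipients the clone was the largest GFP clone in every library. In bone marrow it held 27.2%, 33.0% and 23.7% of GFP reads in mice 1, 2 and 3. In spleen it held 44.1%, 51.4% and 48.5% in the same order. The spleens all lay above the marrows, with no overlap between tissues. The largest other clone was GFP_Barcode_7785 or GFP_Barcode_29850 in the marrows and GFP_Barcode_7785 or GFP_Barcode_100907 in the spleens. The clone was 2.16 ± 0.52 times the size of that next clone in marrow and 3.64 ± 0.63 times in spleen (SD, n = 3).

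In Ptprca mixed recipients it was again the largest GFP clone in all 8 libraries. The marrow shares were 47.6%, 33.6%, 36.2% and 39.2% of GFP reads in mice 17, 18, 19 and 20. The spleen shares were 57.1%, 62.6%, 60.0% and 51.4%. In the spleens the clone alone therefore accounted for the majority of GFP reads, and its share in all 4 spleens was above that of all 4 marrows. It was 3.15 ± 0.79 times the next GFP clone in marrow and 6.45 ± 1.89 times in spleen (SD, n = 4). The widest gap was in the spleen of mouse 18, where the next clone, GFP_Barcode_100907, held 7.18%.

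In NSG LSK recipients the clone was one of a few large clones instead of the leader. The marrow shares were 16.3%, 19.4%, 13.3% and 24.4% of GFP reads in mice 9, 10, 11 and 12, and the spleen shares were 15.7%, 20.0%, 18.2% and 27.0%. The tissues overlapped. It ranked 1 in both tissues of mouse 12 and 3 or 4 in the other 6 libraries. In the marrow of mouse 11, GFP_Barcode_29850 held 32.5%, and the clone was 0.411 times its size.

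NSG mixed recipients had the widest spread of the 4 groups in spleen and in mouse means, but not in marrow. The marrow shares were 21.2%, 17% and 10.8% of GFP reads in mice 21, 22 and 23. The spleen shares were 36.2%, 18.5%, 12.7% and 28.9% in mice 21, 22, 23 and 24. The spleen of mouse 21 was the only library of the 7 in which the clone ranked 1, and the other 6 had it at rank 2, 3 or 4. In the spleen of mouse 23 GFP_Barcode_29850 held 48.9%, and the clone had its smallest size relative to a leader in the LSK-cell recipients, 0.259.

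Ordered by mean share of GFP reads, the 4 Ptprca sets of libraries stood first and the 4 NSG sets last. The spleens of Ptprca mixed recipients came first (57.8% ± 4.80), then the spleens of Ptprca LSK recipients (48.0% ± 3.72), the marrows of Ptprca mixed recipients (39.2% ± 6.08) and the marrows of Ptprca LSK recipients (28.0% ± 4.70). Then followed the spleens of NSG mixed recipients (24% ± 10.5), the spleens (20.2% ± 4.82) and marrows (18.4% ± 4.74) of NSG LSK recipients and the marrows of NSG mixed recipients (16.3% ± 5.22). The errors are SD over 3 or 4 mice. Each set overlapped the next in this order except the marrows of the Ptprca groups, where mixed recipients started at 33.6% and LSK recipients ended at 33.0%.

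The clone held a larger share of GFP reads in Ptprca than in NSG mice, though by a smaller fold than the median clone tested. In LSK recipients the difference was 18.7 percentage points, or 1.0 ± 0.19 on the log2 scale of CPM of GFP reads plus 10 (SE; 2.00-fold). The limma adjusted p was 0.00328, in a comparison in which 53.4% of the 103 tested clones were called. That direction held for the share only, since the value was -3.56 relative to each mouse's median clone (limma adjusted p = 0.000167) and -1.69 with edgeR and TMM scaling (adjusted p = 0.0245). The median tested clone was itself 3.26 log2 higher in Ptprca mice, and of the 55 clones called 52 were higher there and 3 lower. Clones entered the test by their mean over both hosts. A clone large in Ptprca mice only could thus enter, such as GFP_Barcode_3877 (8.53 log2 higher there). The median, the share called and the values relative to the median clone depend on that entry rule. The mouse means did not overlap, from 35.6% to 42.2% in Ptprca and from 15.8% to 25.7% in NSG mice. Since the majority of clones passed the same test, the call does not set the clone apart. The exact two-sided permutation test of the log2 values gave p = 0.0571, and the call was lost in limma without trend (adjusted p = 0.161).

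In mixed recipients the host difference was 26.7 points, or 1.25 ± 0.27 log2 (SE; 2.38-fold, limma adjusted p = 0.00141), where 53.6% of 112 clones were called. Of the 60 clones called, 57 were higher in Ptprca mice and 3 lower, under the same entry rule. The same ceiling applied, since the median clone was 3.13 log2 higher in Ptprca mice and this clone held 21.8% in NSG mice. Relative to the median clone the host difference was -4.20 (limma adjusted p = 7.94e-09), and with edgeR and TMM it was -1.36 (adjusted p = 0.136). The direction by share thus again flipped with the scaling. The mouse means ran from 45.3% to 52.4% in Ptprca and from 11.8% to 28.9% in NSG mice. The exact permutation p was 0.0286, the smallest that 4 against 4 mice allow. Taken tissue by tissue in LSK recipients, the share difference was 0.63 log2 in marrow (limma adjusted p = 0.0455) and 1.27 in spleen (adjusted p = 0.00395). In mixed recipients it was 1.30 in marrow (adjusted p = 0.00883) and 1.37 in spleen (adjusted p = 0.0102). Within 1 tissue and 1 kind of recipient, single mice of the hosts overlapped only in the marrows of LSK recipients, with 23.7% in Ptprca mouse 3 and 24.4% in NSG mouse 12.

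The presence of GMP-derived cells addressed whether the clone fared differently in competition. GFP barcodes made up 50.6% of the mixed pool's reads, and cell dose was not given. Competition and any difference in the dose of LSK cells therefore cannot be told apart. In Ptprca mice the clone held 10.5 points more of the GFP reads in mixed than in LSK recipients, and the mouse means did not overlap (45.3% or more against 42.2% or less). The log2 difference of 0.35 ± 0.096 (SE; 1.28-fold) missed the threshold in limma (adjusted p = 0.0779, rank 3 by p of 143 clones). CPM as deposited count all reads, of which GFP reads were only part in mixed recipients. By that scale the direction turned to -0.94 and was called (limma adjusted p = 1.26e-05), with 28 clones called against 0 of 143 in the main fit. The difference was 0.58 with edgeR and TMM (adjusted p = 0.151) and 0.62 relative to the median clone (limma adjusted p = 0.432). No clone was called (0%) in the main limma fit or by edgeR, while 14 had an unadjusted p under 0.05 in the main fit. In limma 1 fit over all 4 groups called 4 clones, and leaving out mouse 2, 18 or 20 called 1, 2 or 3. The exact permutation test of this clone alone gave p = 0.0286, the smallest that 3 against 4 mice allow, and without mouse 2 the clone was called (0.43 log2, limma adjusted p = 0.0279). Without the spleen of mouse 18, which held foreign barcodes, the difference was 0.23 log2 (limma adjusted p = 0.784). That mouse then entered with its marrow alone (33.6%) in place of its mean over tissues (48.1%), while the other mice kept both tissues. Set against the pool each mouse was given, in which the clone already differed, the difference was 0.13 log2 (exact permutation p = 0.2), and the multiples overlapped, 77.0 to 91.3 against 83.8 to 96.9.

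In NSG mice no such difference was detected. The clone's mean share was 2.46 points higher in mixed recipients, 0.11 ± 0.34 log2 (SE; limma adjusted p = 0.839), and the mice overlapped widely. Again 0% of the 50 tested clones were called, with 6 at an unadjusted p under 0.05. It was 0.36 with edgeR and TMM (adjusted p = 0.5) and 1.98 relative to the median clone (limma adjusted p = 0.264). The sign was not stable, since it was -0.12 relative to the pool (exact permutation p = 0.686), -0.19 in marrow alone, and -0.058 or -0.060 without mouse 21 or 24. The difference between hosts in this effect was 0.25 ± 0.36 log2 (SE; limma adjusted p = 0.892, with 0% of 115 clones called and 11 at an unadjusted p under 0.05).

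Counted against all reads of a mixed recipient, GMP-derived clones included, the clone was still among the largest. In Ptprca mice 17 to 20 it held 17.8%, 13.3%, 12.9% and 12.7% of all marrow reads, at rank 2 or 3. In their spleens it held 26.3%, 26.6%, 22.8% and 25.7% and ranked 1 in all 4. The largest GMP clone of each of these libraries was mCHERRY_2_Barcode_626161 or mCHERRY_2_Barcode_283858. The clone was 0.69 ± 0.19 times the size of that GMP clone in marrow and 1.33 ± 0.19 times in spleen (SD, n = 4), so the larger of the 2 differed between the tissues. In NSG mixed recipients it held 9.32%, 10.5% and 7.11% of all marrow reads in mice 21, 22 and 23. Their spleens held 21.1%, 9.11% and 10.1%, and that of mouse 24 held 15.9%. It led all clones in the spleen of mouse 21 alone among these 7 libraries.

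Within single mice, the clone's share of GFP reads was larger in spleen than in marrow in 13 of 14 mice with both tissues. In the Ptprca LSK recipients the spleen-to-marrow ratio was 1.62, 1.56 and 2.04 in mice 1, 2 and 3. In Ptprca mixed recipients it was 1.2, 1.86, 1.66 and 1.31 in mice 17 to 20. All 7 Ptprca ratios thus lay above 1, but they spread widely within each group. In NSG LSK recipients the ratio was 0.962, 1.03, 1.36 and 1.10 in mice 9 to 12, and in NSG mixed recipients it was 1.71, 1.09 and 1.17 in mice 21 to 23. Mouse 9 was the one exception, with 0.615 points less in spleen than in marrow. Most NSG ratios were close to 1, and mouse 21 stood above the rest.

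In percentage points the spleen exceeded the marrow by 20.0 ± 4.17 in Ptprca LSK recipients (SD, n = 3) and 18.6 ± 9.27 in Ptprca mixed recipients (SD, n = 4). It did so by 1.83 ± 2.39 in NSG LSK recipients (SD, n = 4) and 6.11 ± 7.69 in NSG mixed recipients (SD, n = 3). As log2 ratios these leans towards spleen were 0.79 ± 0.21, 0.57 ± 0.29, 0.14 ± 0.22 and 0.37 ± 0.35 in the same order. Without mouse 21 the last was 0.17, and without mouse 11 the NSG LSK lean was 0.042. By all reads instead of GFP reads, the Ptprca mixed lean was 0.85, of which 0.28 ± 0.25 came from a larger GFP part of the spleen reads (SD, n = 4). In NSG mouse 22 the direction turned by that measure, with a ratio of 0.868.

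Set against the other GFP clones, the clone's lean lay well above the median in Ptprca mice and at the median in NSG mice. In Ptprca mice the median of 143 clones leaned the other way, towards marrow, at -1.46 log2, while this clone stood at 0.66 and ranked 7. It was 1 of 2 clones, 1.4% of those examined, with a larger share in the spleen of all 7 Ptprca mice. The other, GFP_Barcode_2255, which was noted after its values were seen, was far smaller, with 0.706% in marrow and 6.99% in spleen (a lean of 3.53 ± 0.88, SD, n = 7). In NSG mice the median of 52 clones was 0.24, this clone was also at 0.24 and ranked 27, and none (0%) was higher in all 7 spleens. Over all 14 mice, 0% of 117 clones were higher in every spleen, this clone's mean lean was 0.45 at rank 9, and the median was -0.72. Mean lean was used to choose the clone, so these positions carry no test.

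The choice named the clone's mean lean and no difference between hosts, but a comparison of hosts uses the same lean values. The clone was also chosen with earlier results of these data known, so the p-values below are not independent of the choice. Whether the lean differed between hosts was tested within recipients of each kind of cells. The clone's lean was 0.42 ± 0.18 log2 larger in Ptprca mice (SE), with a limma p of 0.0333 that became 0.124 after adjustment over 117 clones. In that comparison 12.8% of clones were called, 14 lower in Ptprca mice and 1 higher, and the median clone differed by -1.49. Clones again entered by their mean over both hosts, while 143 reached the minimum within Ptprca mice and only 52 within NSG mice. Many thus entered through Ptprca mice only, and the calls and every value relative to the median depend on that entry rule. The exact permutation test on this clone alone gave p = 0.0245 for the log2 values. In percentage points, which weigh the large Ptprca shares more, the difference was 15.3 (exact permutation p = 0.00327, with 0.000816 the smallest possible). Relative to each mouse's median lean over the tested clones, the difference was 1.65 log2 and passed in limma (adjusted p = 0.00037). With edgeR it was 1.62 log2 without a call (adjusted p = 0.561). Without the 3 libraries with foreign barcodes, which takes their 3 mice out of the lean, the difference was 0.31 log2 (limma adjusted p = 0.328). The lean in LSK recipients alone differed by 0.65 (limma adjusted p = 0.0983) and in mixed recipients alone by 0.20 (adjusted p = 0.723). The size of the host difference in lean therefore depended on the scale, though each of these values had the same sign.

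No difference of the lean with GMP-derived cells was detected. The difference between mixed and LSK recipients was 0.0045 ± 0.18 log2 (SE; limma adjusted p = 0.981), with 0% of 117 clones called and 8 at an unadjusted p under 0.05. It was -0.22 in Ptprca mice alone and 0.23 in NSG mice alone, neither past the threshold (limma adjusted p = 0.919 and 0.974).

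The larger spleen share of this clone went with a less diverse spleen in Ptprca mice, also among the clones that remained when it was left out. Diversity is given as effective GFP clones, the number of equally large clones with the same Shannon entropy. In Ptprca LSK recipients it was 18.4 ± 2.47 in marrow and 7.03 ± 0.79 in spleen, and without this clone 25.0 ± 1.36 and 11.2 ± 0.76 (SD, n = 3). In Ptprca mixed recipients it was 13 ± 2.58 and 5.54 ± 0.49, and without the clone 22.6 ± 3.46 and 11.7 ± 1.73 (SD, n = 4). The tissue gap in these mice was thus also present without the clone. In NSG LSK recipients the values were 6.75 ± 0.82 in marrow and 6.40 ± 0.44 in spleen, and without the clone 5.86 ± 0.97 and 5.49 ± 0.49 (SD, n = 4). In NSG mixed recipients they were 6.45 ± 0.28 and 5.73 ± 1.59, and without the clone 5.51 ± 0.33 and 5.16 ± 1.76 (SD, n = 3). Leaving it out thus gave lower means in both NSG groups, though not in each library, since the spleen of mouse 21 had 6.20 with the clone and 6.26 without it.

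The other 4 of the 5 largest GFP clones served for comparison, and the clone's share changed between tissues relative to them. In Ptprca mice the spleen-to-marrow ratio of this clone exceeded that of GFP_Barcode_7785 by 1.11 ± 0.75 log2 and that of GFP_Barcode_29850 by 0.81 ± 0.71, each in 7 of 7 mice (SD, n = 7). It exceeded that of GFP_Barcode_8037 by 2.26 ± 1.32, also in 7 of 7. Against GFP_Barcode_100907, which itself leaned to spleen by 0.45 ± 0.69, the margin was 0.21 ± 0.76 and positive in 6 of 7 mice. The 2 last-named clones thus lay at opposite ends, with GFP_Barcode_8037 leaning to marrow in all 7 mice.

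In NSG mice the same margins were 0.58 ± 0.57 log2 over GFP_Barcode_7785 (6 of 7 mice), 0.26 ± 1.15 over GFP_Barcode_29850 (4 of 7), -0.13 ± 0.60 over GFP_Barcode_100907 (3 of 7) and -1.92 ± 2.07 over GFP_Barcode_8037 (2 of 7; SD, n = 7). No consistent order of lean among the large clones was seen there. GFP_Barcode_8037 leaned to marrow in Ptprca mice (-1.60 ± 1.28) and to spleen in NSG mice (2.16 ± 1.92). By mean level over tissues, the clone held 44.0% of GFP reads in Ptprca and 20.5% in NSG mice. The 3 next largest went the other way, with 10.8% and 23.3% for GFP_Barcode_7785, 7.08% and 24.7% for GFP_Barcode_29850, and 8.48% and 16.7% for GFP_Barcode_100907.

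Likeness to the clone was measured as Pearson's r of log2(CPM of GFP reads + 10) over the 29 libraries, among 37 other clones with a mean of at least 1000 CPM. These are descriptions, since libraries of 1 mouse share their source and shares sum to a fixed total. The most alike were GFP_Barcode_16972 (r = 0.72), GFP_Barcode_125674 (0.71) and GFP_Barcode_3877 (0.70). Within the 14 Ptprca libraries their r was -0.78, -0.50 and -0.76 in the same order, and within the 15 NSG libraries 0.51, 0.59 and 0.19. The likeness over all libraries was thus not seen within Ptprca mice, where all 3 had a larger mean share in marrow than in spleen. GFP_Barcode_16972 held 4.14% in Ptprca marrow and 1.95% in Ptprca spleen, GFP_Barcode_125674 held 0.457% and 0.0952%, and GFP_Barcode_3877 held 0.613% and 0.107%. The least alike were GFP_Barcode_29850 (-0.85), GFP_Barcode_7785 (-0.69) and GFP_Barcode_100907 (-0.55), the large clones of the NSG mice. For GFP_Barcode_29850 the inverse relation also appeared within the 15 NSG libraries (-0.72), and for GFP_Barcode_7785 within the 14 Ptprca libraries (-0.69). GFP_Barcode_100907 was near 0 within each host (0.029 in Ptprca and -0.0078 in NSG libraries), so its overall value came with the difference between hosts.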

How the data were processed

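Barcodes were amplified from genomic DNA, per the labels, although the labels' extraction protocol describes a droplet preparation. The authors deposited 1 table per host in CPM (barcode reads per 1000000 reads of a library), filtered and with the 2 PCR samples of each tissue collapsed to 1 column, so 96 sample records gave 48 columns. How duplicates were collapsed is not stated. Bowtie 1.2.2 and R 3.6 are listed without a role, per the submitters' processing notes. Every deposited value was a whole multiple of a common unit of its column (100% within 0.01 unit). That unit was taken as 1 read, which gave 4257581 to 8499553 recovered reads per column. Since the way of collapsing is unknown, recovered reads may be a multiple or a fraction of true reads. A barcode missing from a table was taken as 0.

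The clone's CPM was divided by the GFP part of each library. Shares of marrow and spleen were averaged to 1 value per mouse. All GFP clones with a mean of at least 100 CPM in the groups compared were fitted with limma 3.58.1 (lmFit, eBayes with trend, two-sided) in R 4.3.3 on log2(CPM of GFP reads + 10), with Benjamini-Hochberg adjustment and a threshold of 0.05. The lean, spleen minus marrow, was taken within each of 14 mice, because both tissues came from the same animal, with the trend set on mean abundance. Lean was compared between hosts with presence of GMP cells as a covariate, and the reverse. Exact two-sided permutation tests (Python 3.11.15, scipy 1.17.1) exchanged whole mice, for lean within the other factor. The named clones are GFP_Barcode_1859, the other 4 of the 5 largest GFP clones by mean share, and the 3 most and 3 least alike by Pearson's r. GFP_Barcode_13743, GFP_Barcode_2709, GFP_Barcode_2255 and the leading GMP clones were named after their values were seen. The clone, the comparisons and the lists were chosen with earlier results of these data known.

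Alternatives were other pseudocounts and minima, single tissues, CPM as deposited, log2 odds, centring on the median clone, eBayes without trend, 1 fit over all groups, edgeR 4.0.16 (quasi-likelihood, TMM) on the recovered reads, leaving out 3 libraries with foreign barcodes, and each mouse left out. For lean, centring was on each mouse's median lean over the clones. Shares relative to the pool, and mean shares and leans by all reads or without each mouse, were added after seeing the data. The scripts were tested on simulated data.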

Additional observations from a re-analysis of the deposited data

Results flagged for a closer look

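Reads of GFP_Barcode_1859 also appeared in libraries of mice that had been given GMP-derived cells alone, which should hold mCherry barcodes. All 16 of these libraries had some, with a median of 22.8 CPM, and 11 exceeded the 16.7 CPM (81 reads) found in the GMP pool. In NSG mice these were 579 CPM in the spleen of mouse 13, 29.1 and 1169 CPM in the marrow and spleen of mouse 14, 122 CPM in the marrow of mouse 15, and 87.2 and 17.1 CPM in the marrow and spleen of mouse 16. In Ptprca mice these were 19.6 and 20.5 CPM in the marrow and spleen of mouse 5, 25.0 CPM in the marrow of mouse 6, and 298 and 25.7 CPM in the marrow and spleen of mouse 8. The highest, 0.117% of all reads, was far under the lowest level in a recipient of LSK cells, 7.11%. GFP barcodes made up 0.00619% to 0.944% of reads in these 16 libraries, and the clone was the largest of them in 3 and among the 4 largest in 11. The origin of these reads was not tested.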

How the results depend on the processing

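Differences below are log2 unless stated. The host differences by share turned against the median clone (-3.56 in LSK and -4.20 in mixed recipients) and with edgeR (-1.69 and -1.36). Against the median clone that sign was set in advance by the ceiling on a share. Without trend they kept 1.0 and 1.25 but not the call (limma adjusted p = 0.161 and 0.191). The call was also lost for 1.0 in the exact permutation test of log2 values (p = 0.0571), though not of log2 odds (p = 0.0286). For 1.25 it was lost with no minimum (limma adjusted p = 0.0594). Without single mice they ranged from 0.91 to 1.15 and from 0.98 to 1.42. The effect of GMP cells in Ptprca mice was -0.94 by CPM as deposited (limma adjusted p = 1.26e-05), where GFP reads are only part of the total. The exact permutation test passed for 0.35 and for 0.62 log2 odds (p = 0.0286 each), and without single mice it ranged from 0.31 to 0.43. In NSG mice it was -0.66 by CPM as deposited, -0.19 in marrow and -0.12 relative to the pool, and -0.060 to 0.37 without single mice. The difference between hosts in that effect was -0.28 by CPM as deposited, -0.33 against the median clone, and -0.017 to 0.41 without single mice. For that one, exact permutation of values or log2 odds was not run. The host difference in lean passed in limma against each mouse's median lean (1.65), a median that depends on the entry rule. It also passed in the exact permutation tests of log2 values (0.42, p = 0.0245), log2 odds (0.84, p = 0.00735) and points (15.3, p = 0.00327). Without single mice it ranged from 0.34 to 0.54. The effect of GMP cells on lean was -0.31 against each mouse's median lean and -0.10 without the 3 mice that had a library with foreign barcodes. It was -0.22 in Ptprca mice, and -0.11 to 0.085 without single mice. With no replicate block, that is with tissues not paired by mouse, the lean differed by 0.36 between hosts (limma adjusted p = 0.411) and by 0.063 with GMP cells, with no call changed. Why these values moved was not tested, beyond the settings themselves. Clones called between hosts numbered 17 to 85 in LSK recipients (main fit 55 of 103) and 19 to 66 in mixed recipients (60 of 112). Those called for lean by host numbered 0 to 19 (15 of 117). For GMP cells they numbered 0 to 28 in Ptprca mice (0 of 143), 0 to 6 in NSG mice (0 of 50) and 0 to 3 for the difference between hosts (0 of 115). The number tested changed with the minimum, so these counts are not shares and cannot be compared as such. Depth limits none of the clone's own shares, whereas 3 or 4 mice per group and 1 deposited column per pool do.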
